A study of Allium mongolicum with 12 samples.

Results

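The 150 transcript features whose level varied least over a saline-alkali treatment were described in roots of Allium mongolicum, a wild onion. A feature is 1 assembled transcript, with an ID in the form given by Trinity, an assembler that needs no genome. Its level is given as CPM, its estimated count divided by the library total and multiplied by 1000000. The 150 were taken from 9533 candidates, which had a mean level of 20 to 300 CPM over 12 libraries and were not among the 200 features with the highest mean CPM in control roots. Candidates were ranked by their coefficient of variation (CV), the SD divided by the mean of CPM over all 12 libraries, and the 150 with the lowest CV were kept. They make up 1.57% of the candidates and 0.153% of the 98328 features measured. Because the CVs chose the members, every level and change over these 12 libraries is a description unless it was measured in a library that the choice did not use.

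Seedlings were grown for 45 days, kept in diluted Hoagland nutrient solution for 7 days and then exposed to a solution of NaCl, Na2SO4, NaHCO3 and Na2CO3 in parts of 1, 9, 9 and 1 at a total salinity of 150 mmol/L. Roots were taken before exposure (CK, the control at 0 h) and after 24, 48 and 72 h (T24, T48, T72). Each group has 3 libraries, and 20 seedlings were drawn per group. No roots kept without salt for 24, 48 or 72 h are among the libraries used here, so treatment and elapsed time cannot be told apart. The labels do not say how the 20 seedlings were divided, so p-values rest on library-to-library spread that may be only technical.

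Plant cells keep some transcripts at a nearly even level while many others respond to salt and high pH. Such transcripts often come from genes for basic cell functions, such as the cytoskeleton, protein synthesis, protein turnover and vesicle traffic, and they serve as internal references in quantitative PCR, where the level of a responsive gene is divided by that of a steady one. A reference is sound only if it is even over all the conditions compared, and evenness is always measured against some scale, such as the total of a library. The files do not pair the feature IDs with gene names, so no function can be given to any of the 150 and no standard reference gene could be looked up among them.

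Library totals ran from 23099287 to 26388120, and the members were well covered, with mean estimated counts from 507 to 7018 and no value under 452 in any library. T48 replicate 2 resembled control roots rather than its own group over the 9527 candidates above 0 in every library: the correlation of its log2 deviations from each feature's mean averaged 0.36 with CK and -0.01 with the other 48 h libraries. The 3 libraries of 24 h lay unusually close together, with a median CV within the group of 4.44% over the candidates. The corresponding values were 14% (CK), 16.3% (48 h) and 10.2% (72 h). Lists are therefore also given without T48 replicate 2 and with the 24 h libraries averaged to 1.

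The CVs of the 150 ran from 3.01% to 6.13%, with a median of 5.48%, while the median of the candidates was 19.4%. The highest CPM of a member over the 12 libraries was 1.104 to 1.27 times its lowest, with a median of 1.199, against a median of 1.91 over the candidates. The list has no natural edge. The member ranked 150 had a CV of 6.13% and the first candidate outside one of 6.14%, and 18 candidates lay within 0.1 percentage points above the last member. In all, 1292 candidates had a CV under 10%. Outside the candidates' level range, 10 features under 20 CPM and 7 over 300 CPM had a CV at or below that of rank 150, as did 0 of the 13 features of 20 to 300 CPM that were set aside as most abundant in CK.

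**Figure D1:**
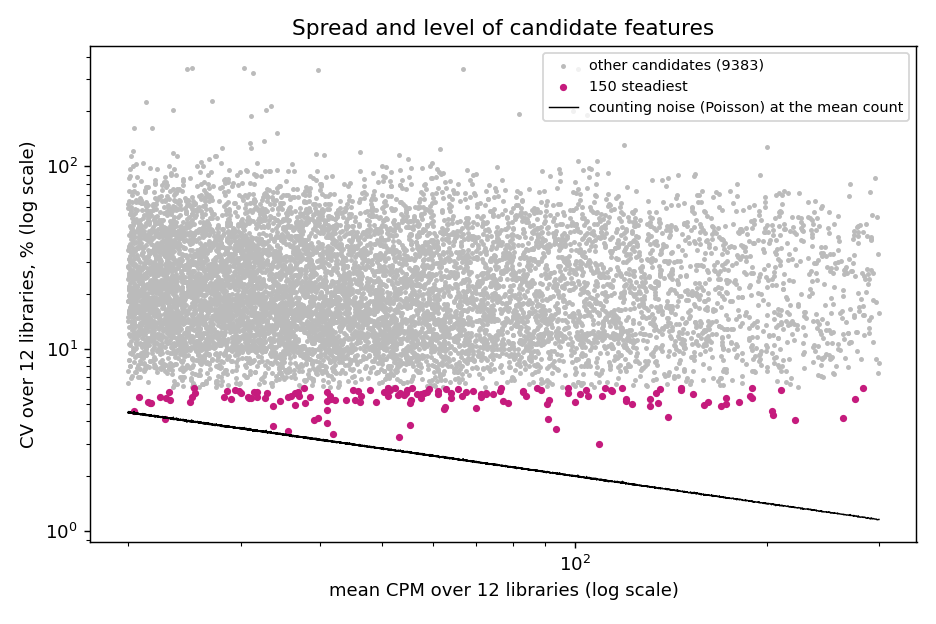
Each point is 1 candidate feature, with its mean CPM over 12 libraries on the x axis and its CV in percent on the y axis, both on log scales; the line is the CV that Poisson counting gives at the mean count. The 150 steadiest features form the lower edge, from 3.01% to 6.13%, over the whole range of levels and mostly above the counting line.

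Poisson counting at a member's mean count would give a CV of 1.19% to 4.44%, and the measured CV was 0.978 to 5.12 times that value, with a median of 2.09 times. For 9 members the ratio was under 1.2 and for 28 it was above 3, while the median over all candidates, members included, was 6.63. Choosing low CVs lowers the ratio of the members, so nothing is read from that difference. The deposited values are estimates that need not equal read numbers, so these ratios cover counting error only and are too high if 1 read was entered as more than 1 count. A smaller share of the faint candidates was chosen: 19 of 2706 candidates of 20 to 30 CPM are members (0.702%), against 38 of 1623 from 50 to 75 CPM (2.34%) and 7 of 322 from 200 to 300 CPM (2.17%). The shares at the levels between were 1.40% (30 to 50 CPM) and 1.85% to 2.79% (75 to 200 CPM). At the 3 levels first given, the median CV of the candidates was 20.7%, 17.7% and 21.2%. The median CV from counting there was 4.08%, 2.6% and 1.3%. Why fewer faint candidates were chosen was not tested.

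The steadiest of all was TRINITY_DN23766_c0_g1_i1_4, with a CV of 3.01% around a mean of 109.2 CPM. Its CPM was 109.4, 107.7 and 111.5 in control roots, 104.9, 108.2 and 111.1 at 24 h, 108.8, 105.3 and 105 at 48 h, and 115.8, 110.9 and 112 at 72 h. The group means with their SD were 109.5 ± 1.94, 108.1 ± 3.12, 106.4 ± 2.11 and 112.9 ± 2.59 CPM (n = 3 each). All groups overlapped except 48 h and 72 h, where the lowest 72 h library stood above the highest 48 h library.

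TRINITY_DN30174_c0_g1_i1_4 came next, with a CV of 3.28%. Its CPM was 50.9, 53.2 and 53.7 in control roots, 55.6, 51.8 and 54.8 at 24 h, 49.6, 53.8 and 53.3 at 48 h, and 55, 52.2 and 53.6 at 72 h. Every pair of groups overlapped. Its lowest value was that of T48 replicate 1, without which its CV was 2.62%.

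The third, TRINITY_DN42409_c0_g1_i1_1, had a CV of 3.42%. Its CPM was 44.6, 41.8 and 43.9 in control roots, 40.7, 42.2 and 42.7 at 24 h, 41.1, 42.1 and 39.5 at 48 h, and 40.9, 41.7 and 40.5 at 72 h. The 72 h libraries lay below all CK libraries by a small margin, and the other groups overlapped with CK. At the edge of the list, TRINITY_DN43589_c0_g1_i1_2 (rank 150) had group means of 40.3 ± 1.47, 39 ± 0.719, 35.5 ± 0.613 and 36.2 ± 1.91 CPM from CK to 72 h (SD, n = 3). TRINITY_DN41166_c0_g1_i5_2 (just outside) had means of 135.4 ± 1.41, 151.2 ± 0.706, 148.8 ± 9.52 and 154.4 ± 6.55 CPM. The last member was thus lower at 48 h and 72 h than in CK, with no overlap, and the first feature outside was higher at all 3 times, also with no overlap.

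Across the 150, no library stood far from the rest on the scale of library totals. The median log2 deviation from a member's own mean lay between -0.04 in CK replicate 2 and 0.04 in T72 replicate 3, and the median size of the deviation was 0.04 to 0.06 in every library. Over the candidates the medians ran from -0.04 to 0.03 as well, but the median size from 0.12 to 0.27. CK replicate 2 was the lowest of the 12 libraries for 32 members (21.3%, against 10.3% of the candidates) and T48 replicate 2 for 22 (14.7%, against 15.7%). T72 replicate 3 was the highest for 25 members (16.7%, against 12.9%) and T48 replicate 3 for 22 (14.7%, against 8.71%). The 24 h libraries were the closest to each other here too: the median CV within the group was 2.63% at 24 h, and 4.71% in CK, 4.40% at 48 h and 4.50% at 72 h. Poisson counting at the mean counts gives a median of 2.57% at 24 h. Pooled over the 150, however, the variance of counts within the 24 h group was 2.06 times that of Poisson counting. It was 4.78 times in CK, 5.84 at 48 h and 4.89 at 72 h, with the limit on estimated counts given above.

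**Figure D2:**
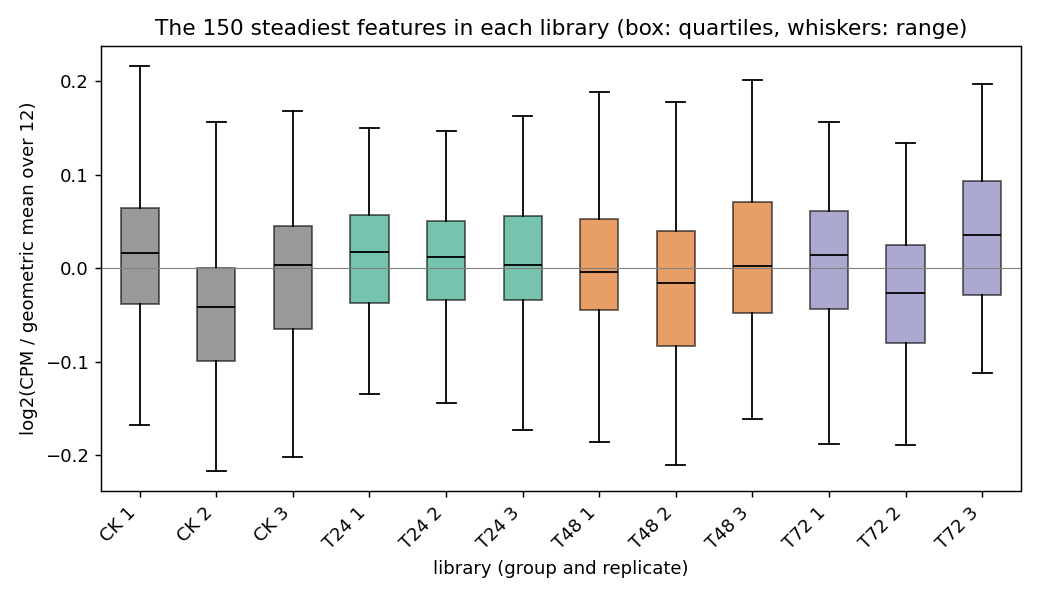
Boxes show, for each library, the log2 of CPM over the feature's geometric mean for the 150 members (line: median, box: quartiles, whiskers: range). Medians stay between -0.04 (CK replicate 2) and 0.04 (T72 replicate 3), and the 24 h boxes sit at nearly the same height.

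The rule used the total spread of each feature, so its division between and within times is given as a description. The median share of a member's variance over the 12 libraries that lay between group means was 37.8%. For the candidates the median was 57.2%. If times did not matter, a share of 27.3% would still be expected in either set. These shares are therefore not the part of the variance due to time. For 53 members (35.3%) more than 50% of the variance lay between times, as for 60.3% of the candidates. The highest group mean of a member exceeded the lowest by a factor of 1.01 to 1.14, with a median of 1.09. With library totals the mean was highest at 24 h for 48 members, at 72 h for 46, at 48 h for 35 and in CK for 21. It was lowest in CK for 45 members, at 48 h for 44, at 72 h for 31 and at 24 h for 30. CK was the highest group for 14% of the members and for 29.6% of the candidates. This order turned with the scaling: after TMM scaling CK was highest for 122 members (81.3%, against 43.4% of the candidates) and lowest for 1. For members chosen to be even in CPM the scaling factors largely fix this turn, so nothing is read from it.

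No member was called at any time in the test across all features. The test was edgeR's quasi-likelihood test on all 12 libraries, scaled by TMM factors, which estimate a library's effective size from the bulk of features, and all 150 members passed its filter on low counts. At 24 h against CK it called 0 members at an adjusted p below 0.05, where 4.12% of 76273 features tested and 9.66% of 9532 candidates were called. At 48 h it called 0 members (0.691% of all features and 2.5% of candidates), at 72 h 0 members (4.74% and 16.8%) and over all 4 times 0 members (8.14% and 20%). An unadjusted p below 0.05 was found for 10 members at 24 h, 8 at 48 h, 16 at 72 h and 4 over all times, where 20%, 15.5%, 20.6% and 23.7% of all features had one. The lowest adjusted p of a member was 0.0959 at 24 h, 0.193 at 48 h and 0.0942 at 72 h (edgeR). Choosing features of low CV lowers these counts, and they also depend on the scaling and the test, so nothing is read from them. The background itself changed when 1 library was left out, and 0 members were called in each such fit. The 3145 features called at 24 h became 302 to 357 when any of the 24 h libraries was dropped, 2029, 2149 and 1346 when CK replicate 1, 2 or 3 was, and 5233 when T48 replicate 2 was. At 48 h the 527 became 79 and 65 on dropping T48 replicates 1 and 3, 73 to 77 on dropping a 24 h library, 294 and 213 on dropping CK replicates 1 and 3, and 2985 on dropping T48 replicate 2; dropping T72 replicate 3 gave 326. At 72 h the 3618 became 1110, 2056 and 1147 on dropping T72 replicate 1, 2 or 3, 1950 to 1963 on dropping a 24 h library, 2174 on dropping CK replicate 3 and 5509 on dropping T48 replicate 2. Over all times the 6209 became 1998 to 2090 on dropping a 24 h library, and 3361 and 4014 on dropping T72 replicates 1 and 3. The 4 groups share 1 estimate of the spread, to which the close 24 h libraries contribute, so the shares called at 48 h and 72 h depend on them too. Fits on CK and 1 other time alone called 6789 of 63517 features at 24 h, 4 of 57993 at 48 h and 2205 of 59168 at 72 h. The median standard error of a member's log2 change was 0.10 at each time, so that small changes could not have been called, and a p that misses the threshold does not show that a level was the same.

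Whether the members were even depended on the scale. TMM factors, relative to library totals, were 0.934 to 0.941 in CK and 0.946 in T48 replicate 2, but 1.00 to 1.05 in the other 8 libraries. Factors by the median-of-ratios method (RLE) divided the libraries in the same way. The geometric mean of the 150 members, relative to library totals, lay between 0.970 and 1.02, and together they held 1.11% to 1.18% of every library. The rule favours such evenness, and it was not particular to the members. Over the candidates the median log2 deviation of a library ran from -0.04 (T48 replicate 2) to 0.03 (T72 replicate 3). With the TMM factors given above, a feature that is even in CPM is lower in treated than in control roots. The median fitted log2 change of the members was -0.11 at 24 h, -0.07 at 48 h and -0.11 at 72 h with TMM factors. Scaled by library totals alone, these medians were 0.03, 0.02 and 0.02. In that fit a library's total covers only the features that passed the filter, whereas CPM uses the total of all features. Its signs can therefore differ slightly from those of CPM. The TMM medians over the candidates were -0.12, -0.10 and -0.11, close to those of the members, and over all features tested they were 0.08, 0.05 and 0.06. With TMM factors 146 of the 150 members had a change below 0 at 24 h, 126 at 48 h and 139 at 72 h, against 63.2%, 61.7% and 60% of the candidates. The choice of low CVs in CPM largely fixes this excess, so nothing is read from it. With library totals, 91, 87 and 92 members had group mean CPM above that of CK. The sign of the fitted change differed between the 2 scalings for 87 members at 24 h, 68 at 48 h and 81 at 72 h, in each case from above 0 with library totals to below 0 with TMM factors.

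**Figure D3:**
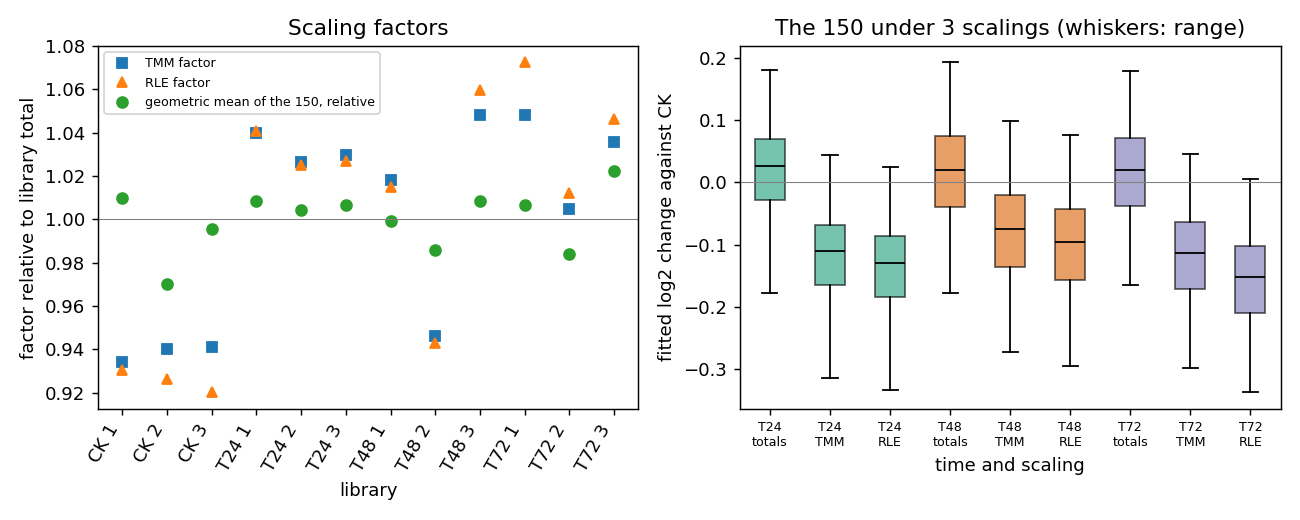
Left, the factor of each library relative to its total by TMM, by RLE and from the geometric mean of the 150 members; right, fitted log2 changes of the members against CK under library totals, TMM and RLE (line: median, box: quartiles, whiskers: range). TMM and RLE factors are low in the CK libraries and T48 replicate 2, and the medians move from 0.03, 0.02 and 0.02 with library totals to -0.11, -0.07 and -0.11 with TMM.

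DESeq2, which scales by median-of-ratios factors, called 6, 5 and 17 members lower than CK at 24, 48 and 72 h (adjusted p below 0.05), and 0 higher. Over all features it called 10.8%, 6.46% and 12.1% at these times, and 4.91%, 3.33% and 6.8% as lower. Among the 9532 candidates, which have the same range of levels as the members, it called 1517, 1003 and 2096 as lower. The 17 members called at 72 h had log2 changes from -0.34 to -0.23. At 72 h an unadjusted p below 0.05 was found for 51 members in DESeq2, where 18044 of 76273 features had one. edgeR gave 31 members with RLE factors (15763 features) and 0 with library totals (16292 features). The DESeq2 count over all 4 times was 11 members (19.7% of all features). With factors of the same kind (RLE), edgeR called 0 members at each time, and 3722 features at 72 h where DESeq2 called 9199. What separates the 2 methods was not tested. In edgeR, a fit on CK and 24 h alone called 2 members, both lower at 24 h (10.7% of all features), and a stricter filter on low counts gave 1, lower at 72 h (9.42%). With TMM scaling, 21 members (14%) had all 9 treated libraries below all 3 CK libraries and 0 had them above, where 8.35% and 2.98% of the candidates did. With library totals the counts were 1 and 2 members, where 4.64% and 5.3% of the candidates did. The choice of members even in CPM and the size of the TMM factors largely fix these counts. Nothing is read from their difference to the candidates.

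Most of the list changed with the scale as well. When candidates were ranked by the CV of TMM-scaled CPM, 55 of the 150 were again among the 150 lowest, and with RLE factors 40 were, all of them also on the TMM list. The TMM and RLE lists shared 125 features. The median CV of the members was 6.59% with TMM, against 19.7% for the candidates, and the highest stood at percentile 12.3 of the candidates' TMM CVs. The choice of low CVs and the narrow range of the factors largely fix these values. TRINITY_DN23766_c0_g1_i1_4 moved from rank 1 to rank 57 (TMM CV 5.22%), TRINITY_DN30174_c0_g1_i1_4 from 2 to 49 (5.05%) and TRINITY_DN42409_c0_g1_i1_1 from 3 to 471 (7.67%). TRINITY_DN41166_c0_g1_i5_2 went the other way, from just outside the list to rank 13 (4.22%). The last member, TRINITY_DN43589_c0_g1_i1_2, moved from rank 150 to rank 1035 (9.34%).

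The members with the highest and lowest mean log2 change over the 3 times bound that mean only, and none of them passed the edgeR test. At single times the members' TMM-scaled changes ran from -0.31 to 0.04 (24 h), from -0.27 to 0.10 (48 h) and from -0.30 to 0.05 (72 h). TRINITY_DN39686_c0_g1_i1_4 was highest, with a mean TMM-scaled log2 change of 0.05 (0.17 with library totals). Its CPM was 105.6, 107.1 and 113.6 in control roots, 121.1, 126.9 and 121.9 at 24 h, 124.5, 124 and 122.9 at 48 h, and 119.9, 113 and 125.4 at 72 h. The 24 h and 48 h libraries lay above all CK libraries, and T72 replicate 2 lay among them.

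TRINITY_DN38704_c0_g2_i1_2 was next, with a mean of 0.02 (0.14 with library totals). Its CPM was 56.5, 57.3 and 56.6 in control roots, 60.8, 62.3 and 63.1 at 24 h, 64.5, 59 and 62.7 at 48 h, and 61, 61.9 and 69 at 72 h. All 9 treated libraries lay above CK in CPM. After TMM scaling they overlapped, with 60.1 to 61 in CK and 58.2 to 66.6 in treated roots, and its CV went from 5.89% to 3.69%, rank 3 of the TMM list.

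TRINITY_DN18774_c0_g1_i2_1 had the lowest mean TMM-scaled log2 change, -0.25 (-0.13 with library totals). Its CPM was 152.9, 159 and 158.4 in control roots, 141.2, 138.5 and 142.3 at 24 h, 128.6, 139.8 and 153.2 at 48 h, and 147.1, 145.9 and 150.9 at 72 h. T48 replicate 3 lay just above the lowest CK library and the other 8 treated libraries lay below all of CK.

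TRINITY_DN33972_c0_g1_i1_1 followed with -0.25 (-0.13 with library totals). Its CPM was 55.1, 53.2 and 55.5 in control roots, 51.4, 48.9 and 47.8 at 24 h, 50.5, 46.7 and 47 at 48 h, and 52.2, 49.8 and 54.6 at 72 h. Here T72 replicate 3 lay among the CK libraries and the rest below them. After TMM scaling both features had every treated library below every CK library, and their CVs were 9.29% and 9.16%.

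**Figure D4:**
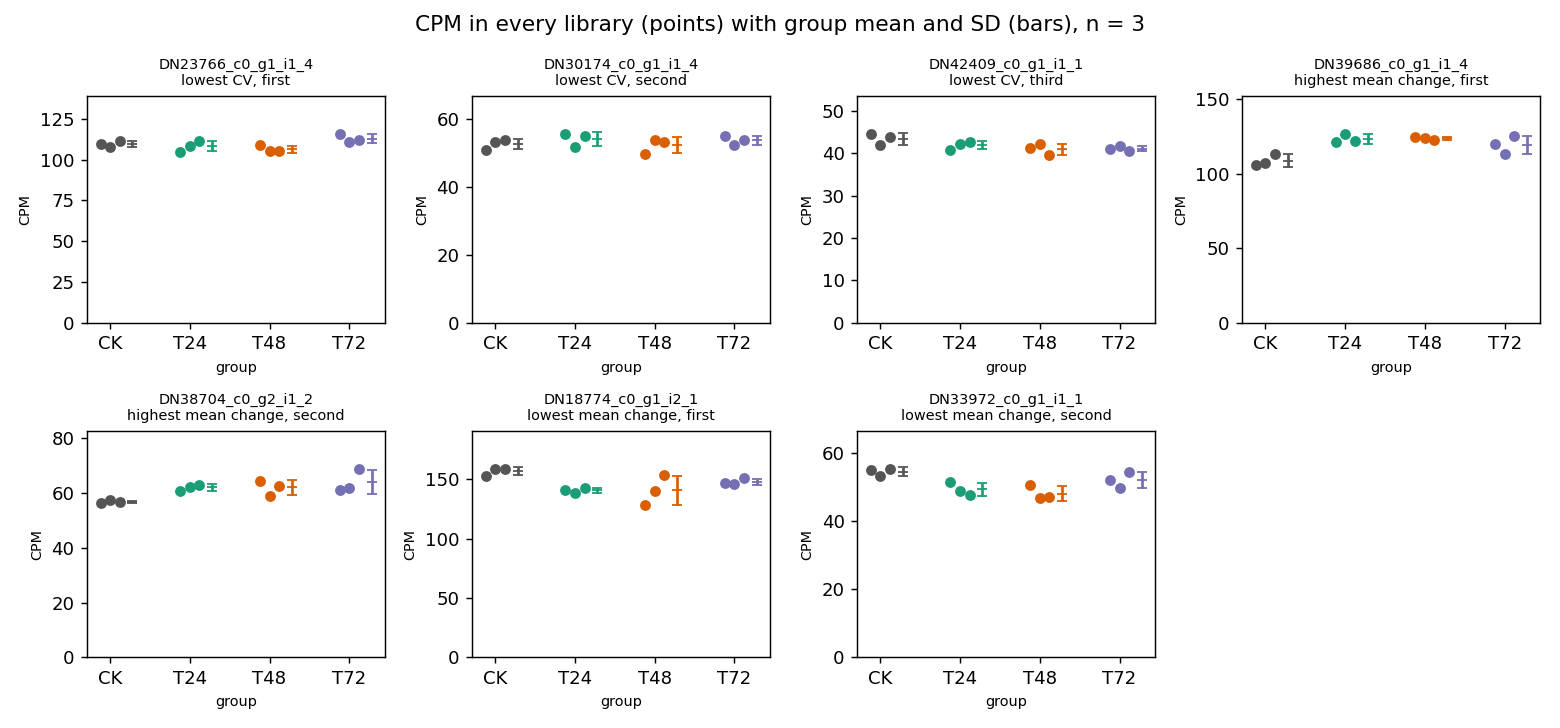
CPM scaled by library totals in each of the 12 libraries (points) with the mean and SD of each group (bars, n = 3) for the 3 members with the lowest CV, the 2 with the highest and the 2 with the lowest mean TMM-scaled log2 change. The y axes start at 0, so that the differences between groups, at most 1.14-fold between group means in any member, appear at their true size.

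Steadiness held in part in libraries that did not choose the features. Each library was left out in turn, 150 features were chosen by the same rule on the other 11, and their CPM in the left-out library was set against their mean over the 11. The median size of the log2 deviation over the chosen features was 0.05 to 0.13, with a median over libraries of 0.08, against 0.13 to 0.30 and 0.23 for all candidates. It was lower for the chosen features than for the candidates in all 12 libraries. In the left-out library 90 to 145 of the 150 lay within 10% of their mean over the rest (60% to 96.7%), against 27.8% to 53.5% of the candidates. The largest deviation was in T48 replicate 2 (0.13, with 90 features within 10%) and the smallest in T24 replicate 2 (0.05, with 145), whose near-identical 24 h partners were among the 11. Within the 12 libraries that chose the 150, the median size of the deviation was 0.04 to 0.06. That value is measured from a mean of log2 CPM that includes the library itself, which makes it smaller. The feature lists differ as well, so the 2 ranges are not on the same measure.

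Leaving out a whole time was a harder case. With 150 features chosen on the 9 libraries of the other 3 times, the median size of the deviation in a left-out library was 0.07 to 0.13, with a median of 0.12, against 0.25 for the candidates. It was again lower than that of the candidates in all 12 libraries. Of the features chosen without CK, 83 to 95 of 150 lay within 10% in a CK library, and of those chosen without 48 h 81 to 85 did in a 48 h library. For 72 h the numbers were 89 to 99 and for 24 h 104 to 120. The lists chosen without a time shared 66 (without CK), 106 (without 24 h), 74 (without 48 h) and 85 (without 72 h) features with the 150.

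**Figure D5:**
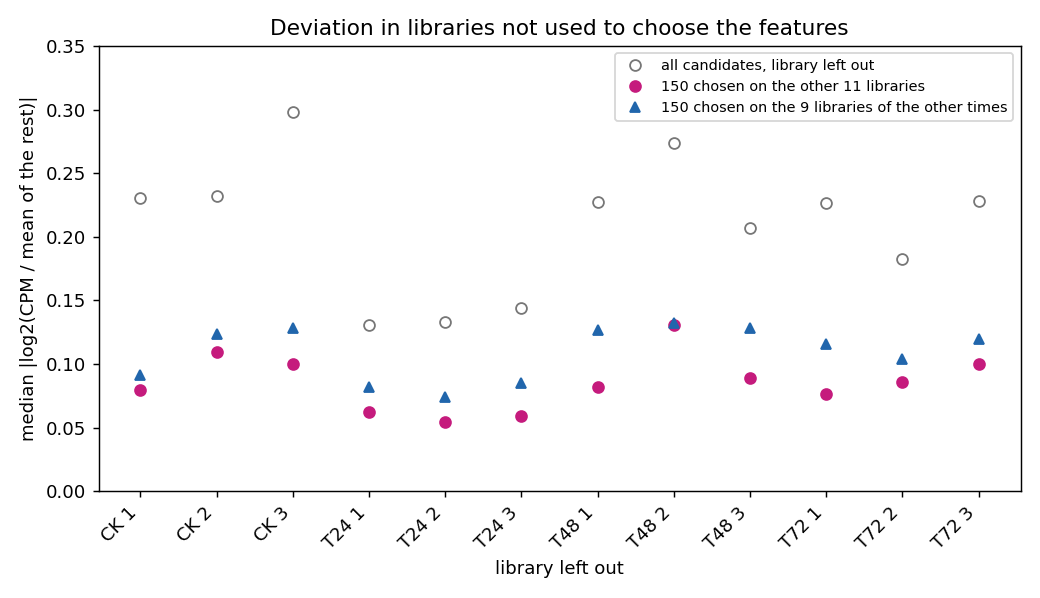
For each library on the x axis, the median size of the log2 ratio of its CPM to the mean of the libraries used for the choice. Features chosen on the other 11 libraries (filled circles) deviated by 0.05 to 0.13 and all candidates (open circles) by 0.13 to 0.30; features chosen on the 9 libraries of the other times (triangles) lay between the filled and the open circles in each of the 12 libraries.

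Single libraries also decided much of the membership. Without 1 library, 103 to 140 of the 150 were chosen again, with the fewest without T48 replicate 2 (103) and CK replicate 3 (111) and the most without T24 replicate 2 (140). With the 24 h libraries averaged to 1, 129 were chosen again. In all 12 of the lists that leave out a library 82 members recurred, and 28 of these were also on both the TMM and the RLE list.

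The IDs of the members held the same kinds of parts as those of the candidates. The suffix from 1 to 4 that ends each ID, whose meaning the file does not state, was 1 in 28% of the members, 2 in 23.3%, 3 in 28.7% and 4 in 20%, against 26.9%, 24.7%, 23.1% and 25.2% of the candidates. The isoform number was 1 in 50% of the members and 42.8% of the candidates. Each assembly gene has 1 feature in the table, and the 150 came from 149 assembly components, the groups of related contigs named in the ID (read together with the suffix). In those components 51 further features were listed, of which 45 were under 20 CPM and 6 were candidates. The 6 had CVs from 8.61% to 15.9%, with a median of 9.68%, all under the candidates' median of 19.4%. Features of 1 component can share reads, so they are not independent of the members.

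Among themselves the members varied along no single pattern. The first 3 principal components of their log2 deviations held 17.1%, 15% and 12.8% of the variance. On the first, the CK and 24 h libraries had loadings from -0.40 to -0.11 and the 48 h and 72 h libraries from 0.005 to 0.51. T48 replicate 2 lay at 0.36, between its 48 h partners at 0.18 and 0.51. Over the 150 its deviations had a mean correlation of 0.05 with the other 48 h libraries and of -0.13 with CK, where over the candidates the values were -0.01 and 0.36. Features in which this library stood apart could not enter the list, and the correlations over the members are weak, so they are given as values only.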

How the data were processed

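RNA from roots was sequenced as paired reads of 150 bp; per the labels' protocols, TRIzol was used for extraction and a VAHTS Universal V6 kit for the libraries. Trimmomatic trimmed the reads, per the submitters' processing notes. For the assembler, aligner, counter and strand, settings were not given in the sources used here. In the deposited file each value is an estimated count (1 of 990048 values above 0 is whole). All 12 columns matched samples by title. CPM and CVs were computed with pandas 2.3.3. Counts were rounded, filtered with filterByExpr (76273 features kept) and fitted in edgeR 4.0.16 (R 4.3.3) with TMM factors, 4 group means and 8 residual degrees of freedom, with Benjamini-Hochberg adjustment over all features tested. DESeq2 1.42.0 was an alternative; others changed the scaling, filter, measure of spread, level range, block or libraries. The fit and the rule were tested on simulated data. IDs printed are the 3 lowest CVs, ranks 150 and 151, and the 2 highest and 2 lowest mean changes. The members, lists and tests were chosen with earlier results of these data known. Correlations over features are not over independent replicates. Intervals were not computed; counting noise covers counting error only.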

Additional observations from a re-analysis of the deposited data

How the results depend on the processing

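edgeR called 0 members at each time with RLE factors, library totals, no filter and libraries scaled to the members (added after seeing the data). It also called 0 in each fit without 1 library. The choice of low CVs lowers such counts, so nothing is read from them. Without a 24 h library only 302 to 357 features were called at 24 h. The members called were 1 at 72 h with the stricter filter (at least 1 CPM in 3 libraries and a mean count of at least 10) and 2 at 24 h in a fit on the 2 groups alone. DESeq2 gave 6, 5, 17 and 11 (24 h, 48 h, 72 h, all times). The median log2 change of the members at 24 h, 48 h and 72 h was 0.026, 0.019 and 0.020 with library totals and 0.0056, 0.0044 and 0.0018 when scaled to the members, where the choice of scale sets values near 0. At 72 h it was -0.15 with RLE factors and with DESeq2, and at 24 h -0.14 on the 2 groups alone. Without 1 library it ran from -0.14 to -0.094, from -0.12 to -0.044 and from -0.14 to -0.091. The median CV was 6.59% with TMM and 7.15% with RLE, and 5.35% to 5.62% without 1 library. Of the 150, 55 recurred with TMM, 40 with RLE and 91 with a range of 50 to 300 CPM, where 59 members fall outside the range by construction, and 103 to 140 without 1 library. The deviation in left-out libraries was 0.12 in place of 0.08 with a whole time left out. The labels name no origin that same-numbered libraries share. The correlations of their deviations ran from -0.18 to 0.15, 3 of 18 exceeded 0.1, and 3 of 12 libraries were closest to their own number. Differently numbered libraries gave -0.22 (T48 replicate 2 with T72 replicate 3) to 0.14 (T48 replicate 2 with T72 replicate 1). With 3 libraries per group these values cannot settle whether libraries were paired. The replicate block left the members called at 0 at each time and lowered the features called at 24 h, 48 h and 72 h from 3145, 527 and 3618 to 1474, 98 and 2515. The alternative by whole assembly gene gave no value, since each has 1 feature. At 20 to 30 CPM, Poisson counting at the candidates' mean counts gives a median CV of 4.08%. Whether a member's spread near that value exceeds counting noise was not tested, and the limit on estimated counts applies.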
